A study of Solanum lycopersicum with 12 samples.

Results

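The genes described here encode 3 kinds of tomato enzyme grouped under jasmonate synthesis. They are allene oxide synthase (AOS), allene oxide cyclase (AOC) and the oxo-phytodienoate reductases OPR1, opr2 and OPR3. The reductases do not all serve this synthesis alike, as described below. All genes were chosen by name, as all probe sets that the array annotation pairs with these 5 symbols. Each gene had 1 probe set, so that the members were 5 of the 10038 tomato probe sets tested. The RefSeq table of tomato genes placed the 5 genes on 5 different chromosomes. The filter on dim probe sets, tried as an alternative, kept 4 of the 5 and removed opr2.

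Jasmonates are plant hormones made from linolenic acid of chloroplast membranes. A lipoxygenase turns the fatty acid into a hydroperoxide, AOS dehydrates this to an unstable allene oxide, and AOC folds the allene oxide into the ring of oxo-phytodienoic acid. OPR3 then reduces the ring in the peroxisome, and shortening of the side chain by beta-oxidation gives jasmonic acid. In leaves the hormone is known for switching on defense against chewing insects and necrotrophic fungi, and root colonization by Trichoderma is known to prime such responses.

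RNA came from tomato shoots harvested at 3 weeks, a tissue that the labels name both aerial parts and leaves, and was measured on 12 Affymetrix Tomato Genome Arrays in 4 groups of 3. Control plants grew from untreated seeds. The other plants grew from seeds coated with spores of the biocontrol fungus T. harzianum, either the wild type T34 or its transformants amdS6 and amdS122, which express the acetamidase gene amdS of Aspergillus nidulans from a constitutive promoter. All pots held autoclaved soil, each array carried RNA pooled from 5 plants, and each transformant was 1 isolate with its own insertions, amdS122 carrying more copies of the cassette than amdS6. Groups that differ by the strain therefore also differ by the isolate, and the effect of amdS cannot be told apart from other differences between the isolates.

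Signals are log2 values from RMA (Robust Multichip Average) and ranged from 3.31 to 14.74 over the table. Chlorophyll a/b-binding protein genes, which mark green tissue, were near the top of this range: CAB4, CAB5 and CAB6A lay between 14.01 and 14.28 on all arrays. Ripe fruit markers E8 and PG2 stayed between 3.77 and 4.38 and the root phosphate transporter PT2 between 4.02 and 4.65. FRO1, the ferric chelate reductase on the root list, was measured between 7.80 and 9.07, with a group mean of 9.06 with T34 and 7.93 with amdS122. PT2, the other gene of this list, was highest in control (4.57) and lowest with amdS6 (4.11). Both genes thus moved with the groups, but not alike. The part of these differences in the results below was not tested. The excess of 3' over 5' signal of the actin, ef1a and gapdh controls also moved with the groups: the mean was highest in control (3.37 ± 0.072), then 3.23 ± 0.047 with T34, 3.06 ± 0.064 for amdS6 and lowest for amdS122 (2.85 ± 0.13; SD, n = 3). The lowest correlation between arrays of a group was 0.998 (Pearson's r across probe sets).

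A difference between groups is given as a log2 fold change with the standard error (SE) of the limma fit over all 12 arrays. It passed the test at an adjusted p under 0.1, with adjustment over all 10038 probe sets, and it was called when it was also at least 2-fold, the limits of the study's methods. The smallest two-sided p of an exact permutation test between groups of 3 is 0.1, so the test rests on the spread that limma shares between probe sets. All comparisons with control use the same 3 control arrays.

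AOS, a gene of the entry step of the branch, had the widest range of the 5 genes. Its synonyms in the annotation are AOS1 and LeAOS1, and no other AOS gene was matched by symbol. The values below are those of this gene and not of the whole step. The log2 signals of AOS were 6.35, 6.49 and 6.52 in control, 6.94, 6.98 and 6.92 with T34, 6.20, 6.36 and 6.19 with amdS6, and 5.06, 5.26 and 4.76 with amdS122. The 3 arrays of amdS122 lay below the 9 others and the 3 arrays of T34 above the 9 others, whereas control and amdS6 overlapped. The order of the group means was T34 (6.95 ± 0.031), control (6.46 ± 0.089), amdS6 (6.25 ± 0.094) and amdS122 (5.03 ± 0.26; SD, n = 3).

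AOS was 2.69-fold lower with amdS122 than in control (log2 fold change -1.43, SE 0.10, adjusted p = 4.78e-07). Against T34 it was 3.79-fold lower with amdS122 (log2 fold change -1.92, adjusted p = 2.97e-08), and against amdS6 2.33-fold lower (log2 fold change -1.22, adjusted p = 3.99e-06). All 3 of these differences were called. The amdS122 arrays (4.76 to 5.26) lay in the dim part of the signal range, so that the size of these folds rests on dim signals in that group. When every probe set was ranked from the deepest fall, AOS stood at position 108 for amdS122 against control, 62 for amdS122 against T34 and 37 for amdS122 against amdS6. A lower signal in pooled shoots can come from fewer cells that express the gene or from less RNA per cell, and the arrays cannot tell these apart.

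With T34, AOS rose 1.41-fold over control (log2 fold change 0.50, SE 0.10, adjusted p = 0.0148), short of the 2-fold limit. With amdS6 it was 1.63-fold lower than with T34 (log2 fold change -0.70, adjusted p = 0.000215). The difference between amdS6 and control did not pass (log2 fold change -0.21, 95% confidence interval -0.43 to 0.018, adjusted p = 0.13). Without amdS122 replicate 2 or replicate 3, arrays that enter this difference only through the shared spread, it passed at the same value (adjusted p = 0.06 and 0.0308). It also passed with arrays centred on their median (adjusted p = 0.0792), a further quantile normalization (0.066), array weights (0.0414) and a fit of the 2 groups alone (0.0416). Scaling on the hybridisation spikes turned its sign (0.15).

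**Figure D1:**
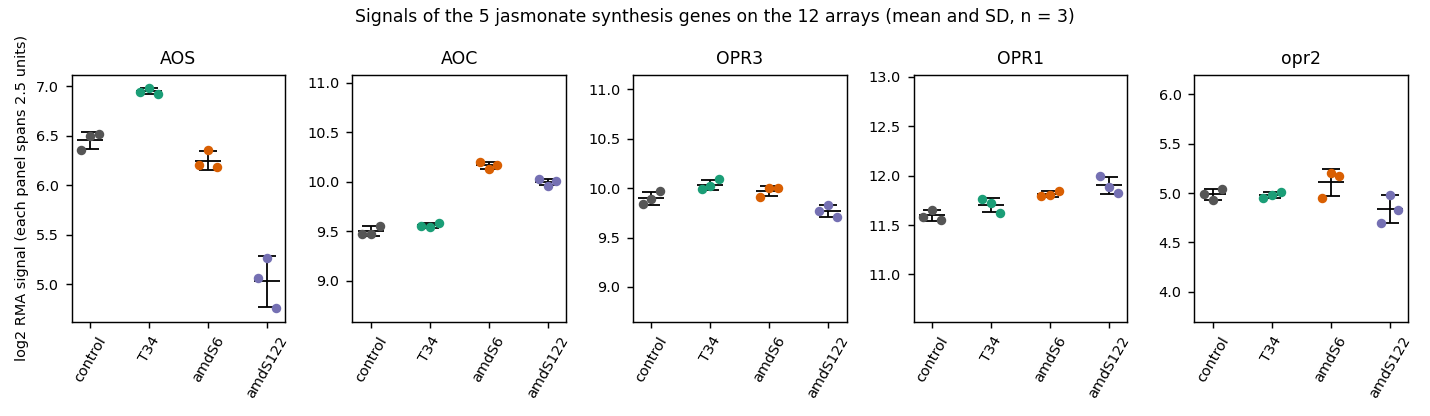
Log2 RMA signal (y axis) of AOS, AOC, OPR3, OPR1 and opr2 in the 4 groups (x axis). Each point is 1 array, and the horizontal mark and bar are the mean and SD of 3 arrays; every panel spans the same number of log2 units. AOS was lowest with amdS122 (mean 5.03) and AOC was higher with both transformants (means 10.17 and 10.00) than in control (9.50).

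AOC, which fixes the stereochemistry of the jasmonate ring, moved differently. Its log2 signals were 9.47, 9.48 and 9.56 in control, 9.55, 9.54 and 9.58 with T34, 10.20, 10.12 and 10.17 with amdS6, and 10.02, 9.96 and 10.01 with amdS122. The 6 arrays of the transformants were all higher than the 6 other arrays, and amdS6 was higher than amdS122 on all arrays, while T34 and control overlapped. The SD within groups was between 0.023 and 0.048.

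AOC rose 1.58-fold with amdS6 (log2 fold change 0.66, SE 0.041, adjusted p = 1.67e-07) and 1.41-fold with amdS122 (0.49, adjusted p = 1.63e-06) over control. Against T34 it was higher by 0.61 with amdS6 (adjusted p = 3.47e-07) and by 0.44 with amdS122 (adjusted p = 4.5e-06). Between the transformants it was 1.12-fold lower with amdS122 (log2 fold change -0.17, adjusted p = 0.00813). T34 and control differed by 0.057 (95% confidence interval -0.033 to 0.15, adjusted p = 0.476). None of these reached 2-fold in the values as deposited. Scaling on the spikes raised the median of all probe sets by 0.36 for amdS6 against control, and AOC was then 1.02 higher on the log2 scale and was called. Where the excess of 3' signal entered the fit as covariate, AOC passed with amdS6 (0.65, adjusted p = 0.00029) and with amdS122 (0.47, adjusted p = 0.0377). AOS with amdS122 then stood at -1.47 (adjusted p = 0.0132). As this excess moved with the groups, such a fit cannot tell it apart from the strain.

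AOS and AOC thus went in opposite directions in amdS122, each past the test. The difference between both genes on 1 array, whose change between groups is not altered by adding a constant to an array, as centring and spike scaling do, was 3.05 ± 0.068 in control, 2.61 ± 0.052 with T34, 3.92 ± 0.13 with amdS6 and 4.97 ± 0.28 with amdS122 (AOC minus AOS, log2, SD, n = 3). The 4 groups did not overlap in this value: it was lowest on the T34 arrays (2.56 to 2.66), then control (2.98 to 3.12), amdS6 (3.77 to 3.99) and amdS122 (4.69 to 5.25). As the probe sets of different genes are not on 1 scale, the level of this value has no meaning, and the pair was chosen after its values were seen, so that no test is given.

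OPR3, the reductase that accepts the natural isomer of oxo-phytodienoic acid, varied far less. Its log2 signals were 9.84, 9.89 and 9.97 in control, 9.99, 10.02 and 10.09 with T34, 9.91, 10.00 and 10.00 with amdS6, and 9.77, 9.82 and 9.71 with amdS122. The amdS122 arrays lay below the 9 others, and the 3 other groups were close to each other. OPR3 was 1.20-fold lower with amdS122 than with T34 (log2 fold change -0.27, SE 0.051, adjusted p = 0.00112) and 1.15-fold lower than with amdS6 (-0.20, adjusted p = 0.00937). The difference from T34 did not pass with scaling on the spikes (-0.33, adjusted p = 0.116).

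Against control, OPR3 passed with amdS122 by a small margin (log2 fold change -0.13, adjusted p = 0.053). It no longer passed without amdS122 replicate 1 (-0.13, adjusted p = 0.101), amdS122 replicate 3 (-0.10, adjusted p = 0.175) or control replicate 3 (-0.096, adjusted p = 0.177), with scaling on the spikes (-0.11, adjusted p = 0.733) and with the excess of 3' signal in the fit (-0.19, adjusted p = 0.487). With T34 the OPR3 value was 0.13 above control (95% confidence interval 0.023 to 0.25, adjusted p = 0.157), with no overlap of the arrays, and with amdS6 0.072 above control (adjusted p = 0.284). T34 and amdS6 differed by -0.063 (amdS6 minus T34, 95% confidence interval -0.17 to 0.049), a sign that turned with scaling on the spikes (0.20).

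OPR1 is a related reductase that acts poorly on the natural isomer, and its part in jasmonate synthesis is taken to be small. Its log2 signals were 11.58, 11.65 and 11.55 in control, 11.76, 11.72 and 11.62 with T34, 11.79, 11.80 and 11.85 with amdS6, and 11.99, 11.89 and 11.82 with amdS122. The arrays of both transformants lay above those of control and T34, and amdS6 and amdS122 overlapped. OPR1 rose 1.16-fold with amdS6 (log2 fold change 0.22, SE 0.054, adjusted p = 0.00642) and 1.23-fold with amdS122 (0.30, adjusted p = 0.000604) over control, and it was higher with amdS122 than with T34 (0.20, adjusted p = 0.0102). The other differences did not pass: 0.11 for T34 against control (adjusted p = 0.296), 0.11 for amdS6 against T34 (adjusted p = 0.125) and 0.087 for amdS122 against amdS6 (adjusted p = 0.251). With scaling on the spikes OPR1 no longer passed in amdS122 against control (0.33, adjusted p = 0.104) and against T34 (0.14, adjusted p = 0.683), and this scaling turned its sign between the transformants (-0.24). Without amdS122 replicate 1, which enters this difference only through the shared spread, amdS6 against T34 passed at the same value (0.11, adjusted p = 0.0964).

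The remaining reductase, opr2, a close relative of OPR1, was dim, below the 30th percentile of mean signal over the array. Its log2 signals were 4.99, 4.93 and 5.04 in control, 4.95, 4.98 and 5.01 with T34, 4.95, 5.20 and 5.17 with amdS6, and 4.70, 4.98 and 4.83 with amdS122. The groups overlapped in every comparison. One difference passed, with amdS122 lower than amdS6 (log2 fold change -0.27, SE 0.078, adjusted p = 0.019). Single arrays decided others: without amdS6 replicate 1, opr2 passed as higher with amdS6 than in control (0.20) or with T34 (0.21). At unchanged values it then also passed as lower with amdS122 than in control (-0.15) or with T34 (-0.14). The array left out enters these differences of amdS122 only through the shared spread. Without amdS122 replicate 2, opr2 also passed for amdS122 against control (-0.22) and T34 (-0.22). Its value for T34 against control was -0.0065 and changed sign without T34 replicate 1 (0.0092) or control replicate 3 (0.019).

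Counted over the 5 genes, T34 against control had 1 higher and 0 lower, beside 5.72% and 4.17% of all probe sets, and 0 called beside 0.0897%. For amdS6 against control 2 were higher and 0 lower (all probe sets 29% and 20.9%) and 0 were called (1.67%). For amdS122 against control 2 were higher and 2 lower (30% and 22%) and 1 was called (2.14%). Against T34, amdS6 had 1 higher and 1 lower (27% and 18.7%) with 0 called (1.9%), and amdS122 had 2 higher and 2 lower (28.2% and 20.7%) with 1 called (2.44%). For amdS122 against amdS6, 0 were higher and 4 lower (19.4% and 18.7%) and 1 was called (0.717%). The 4 lower genes were AOS, AOC, OPR3 and opr2. The median log2 fold change of the 5 genes in this comparison was -0.20, beside 0.015 over all probe sets in the values as deposited, and scaling on the spikes shifted all probe sets by -0.33 here. Passing differences were thus common on the array and called ones, such as the 3 of AOS, rare. A moderated F test over the 4 groups passed for all 5 genes and for 65.5% of all probe sets.

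**Figure D2:**
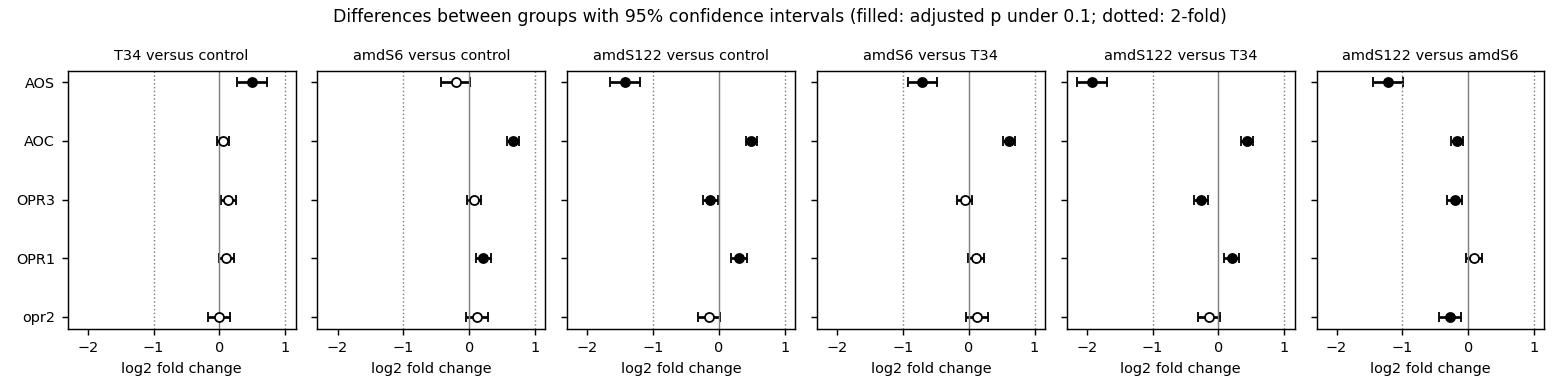
Log2 fold change (x axis) of the 5 genes (y axis) in the 6 comparisons, each first group minus second group, with 95% confidence intervals from limma. Filled points passed at an adjusted p under 0.1, and dotted lines mark 2-fold; AOS crossed this limit in the 3 comparisons of amdS122 (-1.43, -1.92 and -1.22).

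Over the 12 arrays AOS and OPR3 rose and fell together (Pearson's r = 0.875, Spearman's rho = 0.748), as did AOC and OPR1 (0.761 and 0.671). AOS was inversely related to AOC (-0.581 and -0.552) and to OPR1 (-0.668 and -0.706). After the group means were taken off, the pair of AOS and OPR3 stood at r = 0.636, and the pairs of AOC with OPR1 (-0.237) and of AOS with OPR1 (0.321) had changed sign. The points share 4 group means, so these values describe the arrays and carry no test.

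Among probe sets with 1 gene symbol, the 3 most like AOS over the 12 arrays were HT1, a hexose transporter (r = 0.981), ERF3, an ethylene response factor (r = 0.97), and LOC544064 (r = 0.956). The group means of HT1 ran from 9.69 with T34 to 8.88 with amdS122, those of ERF3 from 7.03 to 5.87. The 3 most like AOC were SBT1, a subtilisin-like protease (r = 0.984), LOC543656 (r = 0.973) and MKK4, a mitogen-activated protein kinase kinase (r = 0.966). SBT1 had group means of 5.72 in control, 5.73 with T34, 6.84 with amdS6 and 6.65 with amdS122. Most like OPR3 was LAPA1, a leucine aminopeptidase induced by wounding (r = 0.941), followed by GABA-TP1 (0.923) and copz2 (0.906).

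OPR1 was most like SPS, a sucrose-phosphate synthase (r = 0.962), XTH5 (0.934) and VAHOX1 (0.919), and opr2 most like TCTP (0.839), eIF-5A3 (0.837) and CycB2 (0.829). With the group means taken off, other probe sets led every list: LOC100037504, CITRX and RNALE for AOS (r = 0.835 to 0.847), app1, FDH and DREB1 for AOC (0.892 to 0.894), ACS6, UREF and GCH1 for OPR3 (0.914 to 0.945), PDH, LOC544102 and CYP85A1 for OPR1 (0.879 to 0.927), and adc1, CS2 and ctu1 for opr2 (0.887 to 0.943). Each is the top of 909 candidates over 12 arrays.

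A list of families that act upstream of AOS held 11 probe sets: lipoxygenases, phospholipases D and the omega-3 desaturase Fad7. Not each of its members feeds AOS, and the counts are those of the families. Of these, 1 was higher and 3 were lower with T34 than in control (5.72% and 4.17% of all probe sets), amdS6 had 5 higher and 4 lower (29% and 20.9%), and 3 were higher and 4 lower with amdS122 (30% and 22%). The list median lay within 0.028 of 0 in all 3, and the median over all probe sets between -0.0030 and 0.025. With both transformants the list median was the value of a dim lipoxygenase probe set, at percentile 11 of mean signal. PLDb1, a phospholipase D, had group means of 10.21 in control, 10.05 with T34, 7.60 with amdS6 and 7.13 with amdS122, and its fall was called with amdS6 (-2.61) and amdS122 (-3.09; SE 0.051). Lipoxygenase gene loxC, which supplies the volatile aldehyde branch, rose over control with T34 (0.88), amdS6 (1.14, called) and amdS122 (0.90; SE 0.065). PLDa2 was dim (group means 4.41 to 5.24) and was lower than control in both transformants, at -0.49 for amdS6 and -0.29 for amdS122 (SE 0.11). With amdS122 the adjusted p was 0.0587 and the arrays overlapped those of control. The lipoxygenase TomloxE fell by 0.48 with amdS6 (SE 0.084). TomloxE did not pass with amdS122 (-0.094, adjusted p = 0.395) or with T34 (0.22, adjusted p = 0.158).

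The chloroplast lipoxygenase gene loxD, named here after its values were seen because its product feeds AOS, went in opposite directions in the transformants. Its group means were 8.03 in control, 7.89 with T34, 8.36 with amdS6 and 7.73 with amdS122. It was higher than control with amdS6 (0.33, SE 0.044, adjusted p = 0.00011) and lower with amdS122 (-0.30, adjusted p = 0.000163), and between the transformants it was 0.62 lower with amdS122 (adjusted p = 1.02e-06).

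AOS belongs to the CYP74 family of cytochromes P450, and 2 genes of the competing branches were measured. HPL, the hydroperoxide lyase that makes green leaf aldehydes from the same kind of substrate, rose in all 3 treatments: by 0.22 with T34 (SE 0.050, adjusted p = 0.023), by 0.55 with amdS6 (adjusted p = 4.38e-06) and by 0.52 with amdS122 (adjusted p = 5.43e-06). DES, a divinyl ether synthase, was at the floor of the array with group means between 3.70 and 3.91. It passed as lower with amdS6 than in control (-0.21, adjusted p = 0.0183). These list values are as deposited: with scaling on the spikes every amdS6 difference from control moves up by 0.36, so that the sign of DES turns. The list for beta-oxidation, the last stage of synthesis, matched 0 probe sets by symbol. Probe sets of this stage that carry no symbol in the annotation were not analysed here.

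Of 3 genes for perception and transcription, 0 passed with T34 against control. COI1, the F-box protein of the jasmonate receptor, rose with amdS122 (0.27, SE 0.054, adjusted p = 0.00151) and stood 0.11 above control with amdS6 (adjusted p = 0.131). MYC2, the transcription factor that acts after hormone perception, rose with amdS6 (0.29, SE 0.054, adjusted p = 0.00104) and stood at -0.021 with amdS122 (adjusted p = 0.778). JA2, a NAC transcription factor, was lower than control in both transformants, at -0.62 for amdS6 (SE 0.068, adjusted p = 2.08e-05) and -0.86 for amdS122 (adjusted p = 1.01e-06).

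**Figure D3:**
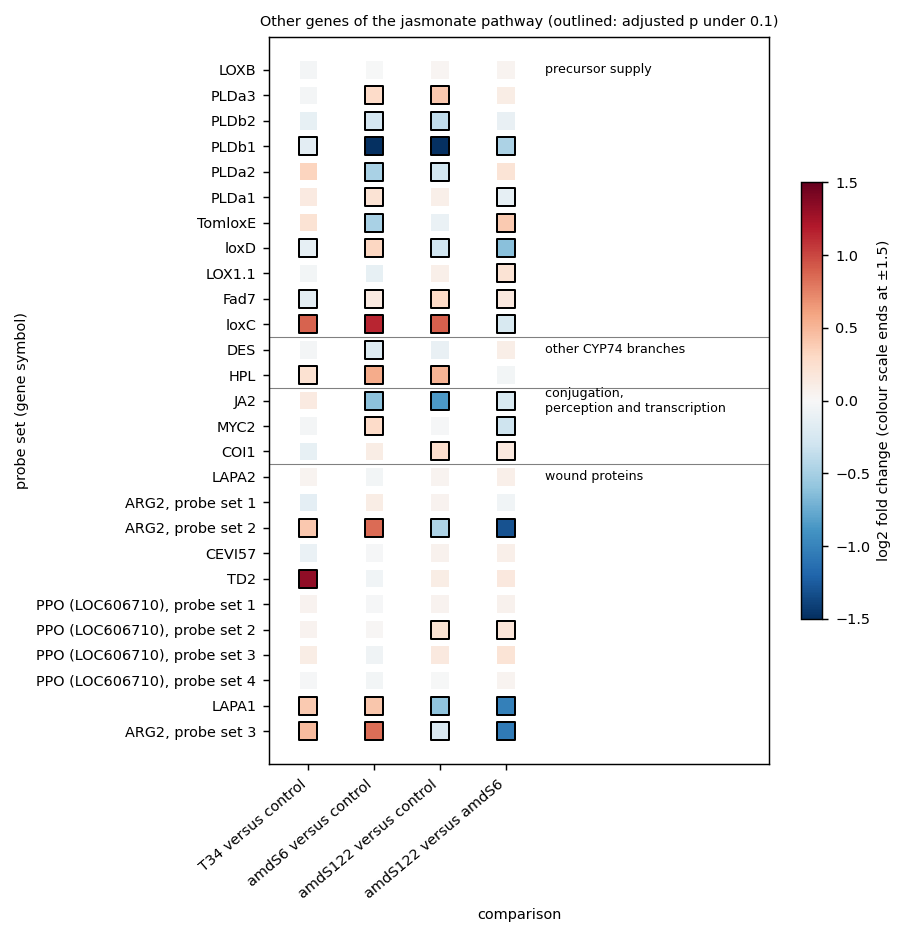
Log2 fold change (colour) of the other jasmonate pathway probe sets (y axis, grouped by list) in 4 comparisons (x axis). Outlined squares passed at an adjusted p under 0.1; values beyond the colour scale, such as PLDb1 with amdS6 (-2.61) and amdS122 (-3.09), are shown at its end.

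Downstream, 11 probe sets of wound-response proteins were matched by symbol or synonym. Probe sets of such proteins that were not matched in this way were not analysed here. Against control, 4 were higher and 0 lower with T34 (5.72% and 4.17% of all probe sets), amdS6 had 3 higher and 0 lower (29% and 20.9%), and 1 was higher and 3 were lower with amdS122 (30% and 22%). The higher ones came from LAPA1, ARG2 and TD2 with T34 and from LAPA1 and ARG2 with amdS6, so that they are not all separate genes. Called were 1 with T34 (0.0897%), 0 with amdS6 (1.67%) and 0 with amdS122 (2.14%). Between the transformants, 1 was higher and 3 were lower with amdS122 (19.4% and 18.7%), and these 3 were called (0.717%). The called ones came from LAPA1 and ARG2 alone, so that they are not all separate genes. The 1 higher was a dim probe set of LOC606710 (group means 4.39 to 4.60). The list medians in these 4 comparisons lay between -0.013 and 0.067. Each was the value of a dim probe set of LOC606710 or ARG2, at percentile 11.9 of mean signal or lower. They therefore say little about the brighter probe sets of the list.

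LAPA1 had group means of 8.64 in control, 9.03 with T34, 9.06 with amdS6 and 8.04 with amdS122. It was 0.39 above control with T34 (SE 0.089, adjusted p = 0.0253), 0.42 above with amdS6 (adjusted p = 0.00245) and fell by 0.60 with amdS122 (adjusted p = 0.000159). ARG2, an arginase that breaks down arginine in the insect gut, had 3 probe sets that disagreed. The one whose identifier marks probes shared by more than 1 transcript stood at 0.41, 0.84 and -0.46 for T34, amdS6 and amdS122 against control (SE 0.069), and another at 0.48, 0.84 and -0.23 (SE 0.077), all past the test. The dimmest one passed in none of these comparisons (group means 4.25 to 4.51). TD2, a threonine deaminase of defense against insects, rose 1.33 with T34 (SE 0.092, adjusted p = 7.85e-06) and stood at -0.051 with amdS6 (adjusted p = 0.689) and 0.11 with amdS122 (adjusted p = 0.365). For amdS122 against amdS6, LAPA1 (-1.03) and both brighter ARG2 probe sets (-1.31 and -1.07) were lower, as AOS was (-1.22). TD2 was not past the test (0.16, adjusted p = 0.217). Nor was LAPA2 (0.083, adjusted p = 0.26), the brightest probe set of the list, named here after its values were seen.

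**Figure D4:**
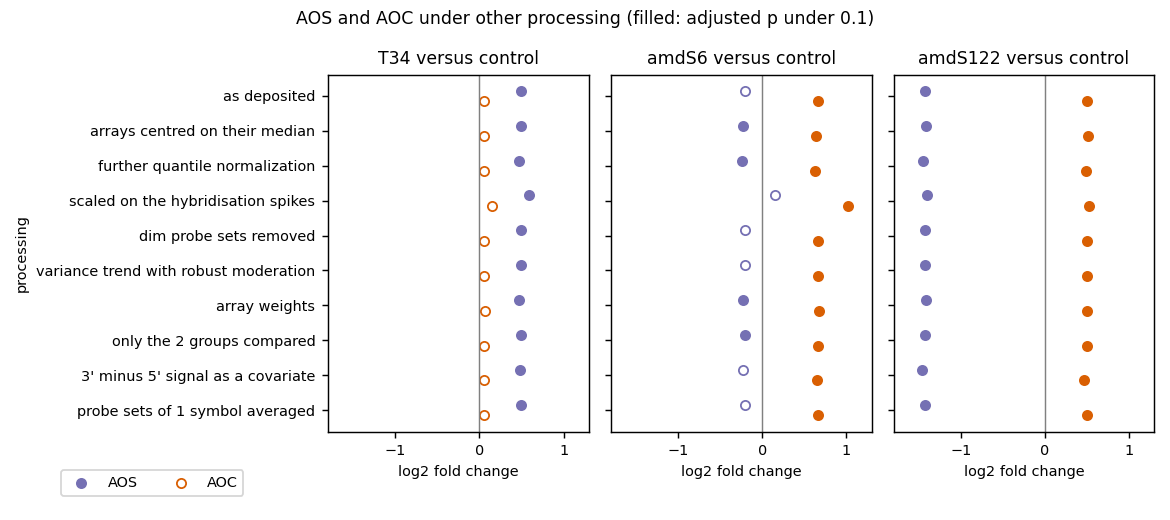
Log2 fold change (x axis) of AOS and AOC for each strain against control (panels) under the processing named on the y axis. Filled points passed at an adjusted p under 0.1; scaling on the hybridisation spikes moved AOS with amdS6 from -0.21 to 0.15 and AOC with amdS6 from 0.66 to 1.02.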

How the data were processed

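The authors deposited log2 signals per probe set, obtained with RMA, which corrects the background, applies a quantile normalization over arrays and summarises probes. Affymetrix Expression Console is named in the submitters' processing notes. Versions are not given in the sources used here. They were used without further normalization. Of 10209 features, 171 control and reporter probe sets were left out of the tests. Arrays do not count molecules, and their number limits the precision: within groups the median SD over probe sets was 0.0663.

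A single limma model (version 3.58.1, R 4.3.3) held all 12 arrays, with a mean for each group. Variances were moderated with 3.69 prior and 8 residual degrees of freedom. The study's multi-class SAM compares no single groups and was not run. Benjamini-Hochberg adjustment was made separately for each of 6 comparisons. The fit was first tested on simulated data. Annotation names 909 probe sets, each with 1 symbol. Pathway lists were matched by symbol or synonym, and DAD1 was dropped because the symbol on the array stands for another gene.

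All 5 members are described. Lists of up to 6 probe sets are named whole, longer ones by the 4 with the largest range of group means, and likeness by the 3 highest Pearson's r. Members and lists were chosen with earlier results of these data known. The labels and headers give no batch, and the coating suspension differs between the labels and the methods, so its strength is not printed. The labels call the replicates biological, and the spread between them is a spread between pools. Alternatives were other scalings, filters, variance models and thresholds, array weights, a replicate block, the excess of 3' signal as covariate, and each array left out in turn.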

Additional observations from a re-analysis of the deposited data

Results flagged for a closer look

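Differences between the effects of 2 strains that passed the test, with the difference itself tested by limma, are given here. Passing was common: of all probe sets, 27% were higher and 18.7% lower for amdS6 against T34, 28.2% and 20.7% for amdS122 against T34, and 19.4% and 18.7% for amdS122 against amdS6. For AOS the log2 differences were -0.70 (amdS6 minus T34), -1.92 (amdS122 minus T34) and -1.22 (amdS122 minus amdS6). AOC differed by 0.61 (amdS6 minus T34), 0.44 (amdS122 minus T34) and -0.17 (amdS122 minus amdS6). OPR3 differed by -0.27 (amdS122 minus T34) and -0.20 (amdS122 minus amdS6), OPR1 by 0.20 (amdS122 minus T34) and opr2 by -0.27 (amdS122 minus amdS6). Those of AOS with amdS122 were the ones that also reached 2-fold.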

How the results depend on the processing

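The 3 calls of AOS held under the other scalings, variance models, weights, thresholds and the covariate, and with each array left out. The covariate, the excess of 3' signal, moved with the groups, so its fit cannot tell this excess apart from the strain. The filter on dim probe sets says nothing about them, since AOS passed it narrowly, through the groups where it is brighter. Left out in turn, the arrays gave -1.54 to -1.29 against control, -2.04 to -1.79 against T34 and -1.34 to -1.08 against amdS6. AOC kept its side of the adjusted p in all 6 comparisons under every alternative. The filter on dim probe sets removed opr2.

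The mean log2 signal of the spikes itself varied within groups, most in control (10.30 to 10.75, SD 0.23). Scaling on the spikes shifted all probe sets by 0.36 for amdS6 against control, by 0.27 for amdS6 against T34 and by -0.33 for amdS122 against amdS6. It reversed AOS in amdS6 against control (0.15), OPR3 in amdS6 against T34 (0.20), OPR1 in amdS122 against amdS6 (-0.24) and opr2 in T34 against control (0.082). The genes that passed then numbered 4 for amdS6 against control (1 called), 2 for amdS122 against control, 4 for amdS6 against T34 and 2 for amdS122 against T34. Newly past the test were OPR3 (0.43) and opr2 (0.48) in amdS6 against control and OPR1 (0.38) and opr2 (0.40) in amdS6 against T34. Under this scaling the median over all probe sets was 0.37 in the former comparison and 0.29 in the latter. The share of all probe sets that then passed is not given here, so the counts of passing genes show nothing particular to the 5 genes. Lost were OPR3 (-0.11) and OPR1 (0.33) in amdS122 against control, and OPR3 (-0.33) and OPR1 (0.14) in amdS122 against T34.

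Array weights gave 2 passing genes in T34 against control and 5 in amdS6 against control (share of all probe sets not given). They brought OPR3 past the test in T34 (0.12), AOS (-0.23), OPR3 (0.093) and opr2 (0.20) in amdS6 against control and opr2 in amdS6 against T34 (0.18), and reversed opr2 in T34 against control (0.018). AOS in amdS6 against control also passed with arrays centred on their median (-0.23), a further quantile normalization (-0.25) and a fit of only the 2 groups (-0.21). The quantile normalization reversed opr2 in T34 against control (0.015) and brought past the test opr2 in amdS122 against T34 (-0.17) and OPR1 in amdS6 against T34 (0.13). The latter also passed without dim probe sets, where fewer were tested, with a variance trend (both 0.11) and with the 3' minus 5' covariate (0.19). OPR1 in amdS122 against amdS6 passed with centring (0.13) and with the covariate (0.19). OPR3 in amdS122 against control was lost with the covariate (-0.19) and at an adjusted p under 0.05 (-0.13). The cause of these changes was not tested.

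Leaving out arrays moved across the adjusted p of 0.1 AOS in amdS6 against control (-0.26 to -0.17), OPR3 in amdS122 against control (-0.16 to -0.096), OPR1 in amdS6 against T34 (0.073 to 0.14) and opr2 in amdS6 (0.075 to 0.20) and amdS122 (-0.22 to -0.081) against control and in amdS6 (0.081 to 0.21) and amdS122 (-0.22 to -0.075) against T34. For opr2 in T34 against control (-0.036 to 0.019) only the sign changed, around 0.

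The main fit did not pair the arrays by replicate number, although arrays of the same number were more alike than arrays of other numbers. Deviations from group means correlated between -0.047 and 0.549 for 18 pairs of the same number, 10 of them over 0.1 (median 0.167), beside a median of -0.09 and 8 of 36 over 0.1 for pairs of other numbers, and 7 of 12 arrays correlated best with their own number. With a replicate block, passing probe sets went from 993 to 1120 for T34 against control and from 5012 to 5217 for amdS6 against control, while called ones went from 9 to 9 and from 168 to 168. For amdS122 against control they went from 5224 to 5514 and from 215 to 216. The block brought past the test AOS in amdS6 against control (-0.21) and opr2 in amdS122 against control (-0.15), and moved no other difference of the 5 genes across the adjusted p of 0.1.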
